A study of Mus musculus with 4 samples.

Results

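The 10 genes described here encode chaperones, folding enzymes and stress-induced cofactors of the endoplasmic reticulum (ER), among them Sdf2l1. They were taken by gene name from the deposited table of 54149 genes. All 10 were found, and all 10 were among the 11900 genes that averaged 1 FPKM (fragments per kilobase of gene length, scaled to a library total) or more and were tested. The levels came from livers of adult females on a mixed background, C57BL/6 x 129S4/SvJae. One group was wild-type and the other was a liver-specific Utx knockout, labelled Utx KO; the sources used here do not give the Cre driver or the time from dose to collection. Utx, listed as Kdm6a, is a histone H3 demethylase. Mice of both groups were fasted for 16 h and injected intraperitoneally with 300 mg/kg acetaminophen (APAP), which damages hepatocytes at high dose, and no undosed group was analysed here. Each group held 2 libraries, each from the pooled RNA of 2 mice. The p-values therefore rest on the spread between pools, which limma estimates for each gene partly from other genes.

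The libraries held between 16330451 and 17804730 recovered reads. Kdm6a was at 3.40 and 3.85 FPKM in wild-type and 2.20 and 2.12 FPKM in knockout pools (limma adjusted p = 0.0715). It was lower with no overlap but did not pass at 0.05. The 10 hepatocyte markers summed to 40126 and 49526 FPKM in wild-type pools, against 46538 and 35514 FPKM in knockout pools, and 0 of them passed the limma test, also at an unadjusted p under 0.05 or with voom. In these whole-tissue samples, fewer cells of a type and less RNA per cell cannot be told apart.

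Secreted and membrane proteins fold in the ER, and hepatocytes, which make most plasma proteins, carry a large ER. When unfolded proteins accumulate there, the sensors IRE1, PERK and ATF6 start the unfolded protein response, in which ATF6 and XBP1 raise the transcription of ER chaperones while PERK acts through ATF4 and CHOP. Hspa5 encodes BiP, the central chaperone of the ER, and several of the other genes encode proteins that assist it.

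Most of these promoters carry the ER stress response element (ERSE), whose CCAAT end is bound by the factor NF-Y and whose CCACG end is bound by ATF6 or XBP1. RefSeq windows on GRCm38.p6, from 250 bases before to 50 bases after the transcription start, were matched for 9 of the 10 genes. Manf was not matched. The exact element, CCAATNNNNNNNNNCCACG on either strand, lay in 6 of the 9 windows, against 39 of 32851 windows (0.119%) over all RefSeq genes, these 6 included. The element was first described in promoters of this family, so the count is not independent of what the genes are known for. The matches are shown because 6 of the 9 windows, though not that of Sdf2l1, held the element. They are written 5′ to 3′ along the transcribed strand with the element in capitals.
Hspa5 (chr2:34772025-34772043, plus strand): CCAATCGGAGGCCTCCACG
Calr (chr8:84847060-84847108, minus strand): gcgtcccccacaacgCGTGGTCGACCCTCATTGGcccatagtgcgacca
Hsp90b1 (chr10:86705623-86705671, minus strand): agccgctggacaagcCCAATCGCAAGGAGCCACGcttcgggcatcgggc
Hsp90b1 (chr10:86705518-86705566, minus strand): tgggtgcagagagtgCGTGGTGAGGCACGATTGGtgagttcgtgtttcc
Pdia6 (chr12:17266476-17266524, plus strand): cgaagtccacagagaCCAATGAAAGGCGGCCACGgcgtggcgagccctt
Dnajc3 (chr14:118937812-118937860, plus strand): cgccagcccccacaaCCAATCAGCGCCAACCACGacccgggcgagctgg
Creld2 (chr15:88819505-88819553, plus strand): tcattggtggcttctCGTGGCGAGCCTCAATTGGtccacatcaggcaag
In Calr, in Creld2 and at the second Hsp90b1 position the element lies on the opposite strand, so its CCACG end comes first, as CGTGG. Only the element itself is printed for Hspa5, because the element and its flanks lie in an annotated exon of GENCODE release M21, which starts Hspa5 120 bases upstream of the RefSeq start.

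The window of Sdf2l1 held 0 exact elements, as did those of Pdia4 and Dnajb9. All 250 upstream bases of the Dnajb9 window lie in a GENCODE exon, so that window lies inside the gene as GENCODE lists it, and its 0 is not comparable with the others. The closest approach in Sdf2l1 differed at 2 of the 10 fixed letters, which 17.9% of all windows matched or bettered, and that of Pdia4 differed at 1, as in 1.5% of windows. CCAAT was counted on either strand, copies inside an ERSE included. Each of the 9 windows held at least 1 copy, where 37.4% of all windows did. The 6 windows with an exact ERSE hold a copy by definition, so this count is not separate from that of the ERSE. There were 6 copies in Hsp90b1, 4 each in Hspa5 and Sdf2l1, 3 each in Pdia4 and Creld2, 2 each in Calr, Pdia6 and Dnajc3, and 1 in Dnajb9, and 3.37% of all windows held at least 3. The 200 bases before the Sdf2l1 start are shown because Sdf2l1 was the only member called between genotypes, as described below. The 3 copies that lie in them are in capitals.
Sdf2l1 (chr16:17132384-17132583, minus strand): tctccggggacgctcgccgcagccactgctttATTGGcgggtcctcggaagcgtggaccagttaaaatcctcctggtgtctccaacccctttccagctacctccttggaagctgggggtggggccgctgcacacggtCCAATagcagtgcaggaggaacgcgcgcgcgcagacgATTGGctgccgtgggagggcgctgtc
The core of the unfolded protein response element, TGACGTG, lay in the Hspa5 window alone of the 9, against 2.01% of all windows, and it did not overlap the ERSE. It is shown in capitals with its flanks.
Hspa5 (chr2:34771918-34771954, plus strand): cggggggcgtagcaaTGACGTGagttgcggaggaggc
The other motifs searched, on both strands, were the second ERSE form, in which ATTGG is followed after 1 base by CCACG, the cyclic AMP element TGACGTCA and the C/EBP-ATF composite TGATGNAA. They lay in 0 of the 9 windows, and in 0.0365%, 1.79% and 3.97% of all windows. A match is a string of letters and not evidence of binding, and no match says only that these letters are not in this window.

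**Figure D1:**
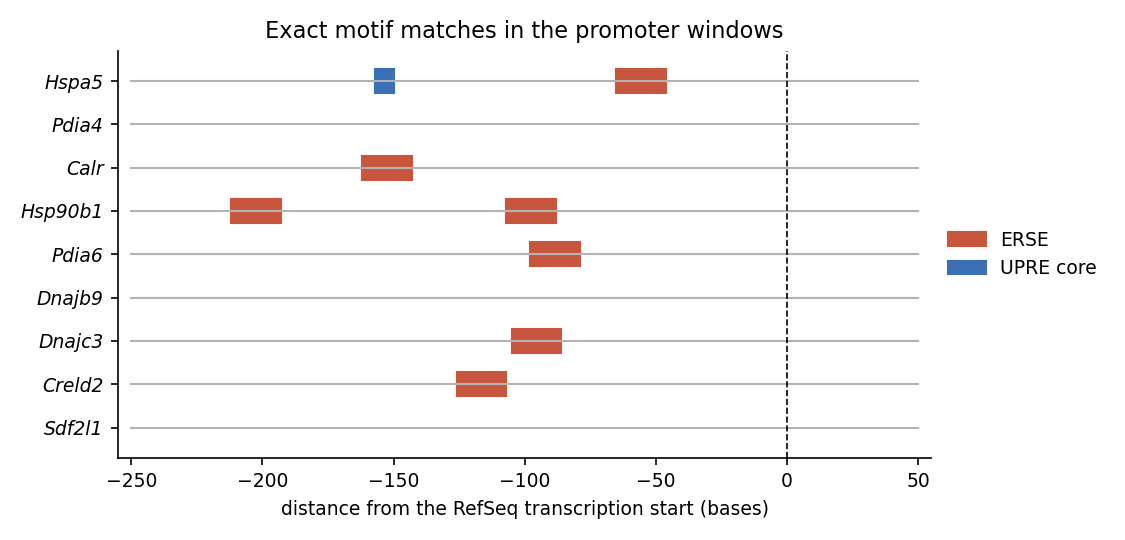
Exact motif matches in the promoter windows of 9 members, by distance in bases from the RefSeq transcription start (dashed line). Red boxes are ERSE matches on either strand and the blue box is the UPRE core; Hsp90b1 has 2 ERSE matches, and the rows of Pdia4, Dnajb9 and Sdf2l1 have no box.

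The comparison of genotypes asks how these transcripts differ between wild-type and Utx knockout liver, both dosed with acetaminophen. Sdf2l1 rose and was the only member of the 10 that passed the test across all genes. Its mean was 2.24-fold higher in the knockout. Hspa5, the most abundant member, had a mean 1.88-fold lower in the knockout, with both knockout pools below both wild-type pools, but did not pass. Thus 1 of 10 members was called higher, where 1.6% of all tested genes were, and 0 were called lower, where 3.14% of all tested genes were. Limma voom on the recovered reads gave 1 and 0 as well. At an unadjusted p under 0.05, 3 members were higher and 1 was lower in limma, 4 of 10, where 27.1% of all tested genes passed. Over all tested genes 190 were called higher and 374 lower, a split that became 211 and 255 when values were rescaled to each library's listed reads. The median log2 fold change was 0.24 over the members and 0.01 over all tested genes.

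**Figure D2:**
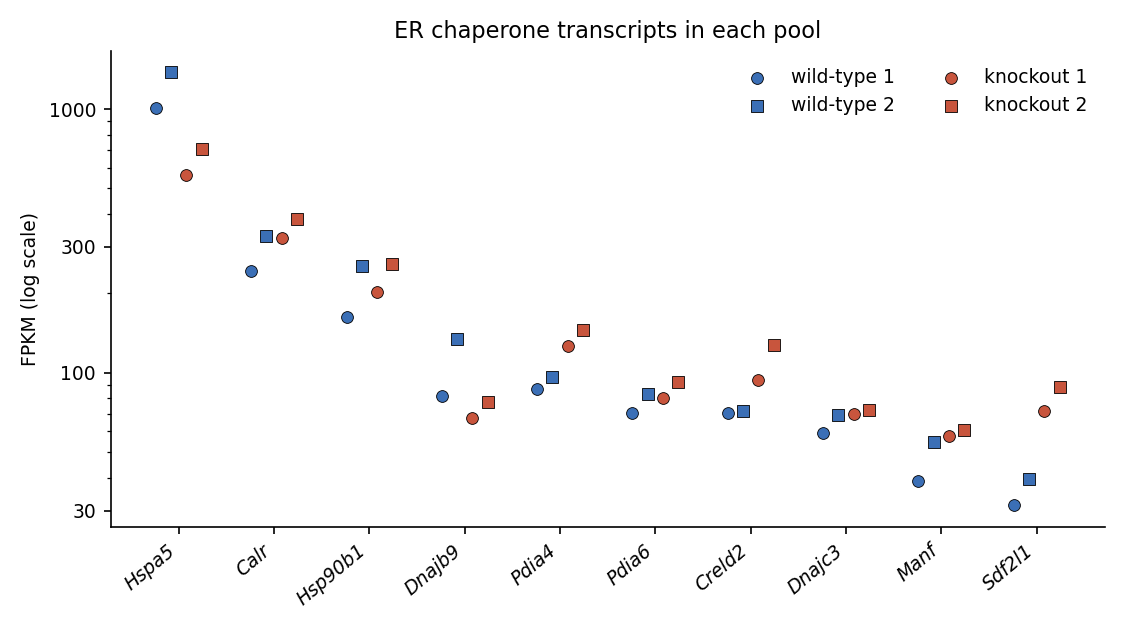
FPKM on a log scale of the 10 members in the 4 pools, ordered by wild-type mean. Blue points are wild-type and red points are knockout pools, with circles for replicate 1 and squares for replicate 2. For Hspa5 and Dnajb9 both red points lie below both blue points. For Sdf2l1, Pdia4, Creld2, Manf and Dnajc3 both lie above.

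Sdf2l1 encodes a soluble ER protein that joins the cochaperone ERdj3 in keeping BiP clients soluble. It was at 31.5 and 39.5 FPKM in wild-type pools, against 71.4 and 87.9 FPKM in knockout pools. Both knockout pools were above both wild-type pools. These levels rest on 589, 687, 1407 and 1667 reads. On the log2 scale this was a difference of 1.16 with a standard error (SE) of 0.18 (95% confidence interval 0.69 to 1.62, limma adjusted p = 0.0454). Sdf2l1 (ENSMUSG00000022769) lies on GRCm38 chromosome 16, 17130140 to 17132383, minus strand. It was the least abundant member per length in both wild-type pools and ranked 7 of 10 in both knockout pools, above Dnajc3, Manf and Dnajb9. Its call is close to the threshold: leaving out any 1 library gave adjusted p between 0.0757 and 0.104, with log2 fold changes from 0.99 to 1.32. It was also lost without a mean-variance trend (adjusted p = 0.0614), without a filter on low values (0.122) and with crossed replicate pairs (0.0627).

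Hspa5 (ENSMUSG00000026864, GRCm38 chromosome 2, 34771970 to 34777547, plus strand) was at 1009.7 and 1378 FPKM in wild-type pools, against 563 and 709 FPKM in knockout pools. The knockout pools were lower with no overlap. Its log2 fold change of -0.90 had an interval that left out 0 (SE 0.24, 95% confidence interval -1.52 to -0.28), but it did not pass (limma adjusted p = 0.102). It stayed negative in all 17 alternatives tried, from -1.12 to -0.68, and passed in 0 of them, with adjusted p from 0.0750 to 0.371. Hspa5 took 54.5% and 54.8% of the summed FPKM of the 10 members in the wild-type pools and 34.0% and 35.2% in the knockout pools.

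The other 2 large chaperones and the disulfide isomerases were not called. Calr encodes calreticulin, the lectin chaperone of glycoproteins. It was at 243 and 331 FPKM in wild-type and 324 and 383 FPKM in knockout pools, so the groups overlapped (log2 fold change 0.31, SE 0.21, limma adjusted p = 0.387). Hsp90b1 encodes the ER member of the HSP90 family, endoplasmin. It was at 163 and 254 FPKM in wild-type and 202 and 259 FPKM in knockout pools, also overlapping (log2 fold change 0.17, SE 0.27, adjusted p = 0.722). That value turned to -0.15 without wild-type replicate 1 and to -0.01 without knockout replicate 2. Gm15344, at up to 10.4 FPKM, overlaps the Hsp90b1 span on the same strand. Calr was above Hsp90b1 in each of the 4 pools. Pdia4 and Pdia6 encode disulfide isomerases of the ER. Pdia4 was at 86.5 and 96.6 FPKM in wild-type and 126 and 145 FPKM in knockout pools, higher with no overlap, but did not pass (log2 fold change 0.56, SE 0.14, limma adjusted p = 0.0913). Pdia6 was at 70.1 and 82.9 FPKM in wild-type and 79.9 and 92.2 FPKM in knockout pools, which overlapped (log2 fold change 0.17, SE 0.15, adjusted p = 0.499).

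The J-domain cochaperones Dnajb9 (ERdj4) and Dnajc3, which stimulate the ATPase of BiP, differed in direction. Dnajb9 was at 81.3 and 134 FPKM in wild-type and 67.5 and 77.3 FPKM in knockout pools. The knockout pools were lower with no overlap, but the wild-type pools lay further from each other than the lower of them lay from either knockout pool (log2 fold change -0.53, SE 0.27, limma adjusted p = 0.277). Dnajc3 was at 59.2 and 69.3 FPKM in wild-type and 69.5 and 72.5 FPKM in knockout pools (log2 fold change 0.15, adjusted p = 0.501). Its groups did not overlap, by the narrowest margin of the members.

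Creld2 and Manf encode small ER proteins that are induced by ER stress and can be secreted. Creld2 was at 70.1 and 71.7 FPKM in wild-type and 93.5 and 127 FPKM in knockout pools (log2 fold change 0.62, SE 0.18, limma adjusted p = 0.120). Manf was at 38.8 and 54.6 FPKM in wild-type and 57.4 and 60.7 FPKM in knockout pools (log2 fold change 0.36, SE 0.19, adjusted p = 0.30). Both were higher in the knockout with no overlap and neither passed. The span listed for Manf also holds Rbm15b on the same strand and Dcaf1 on the other, at up to 6.40 and 6.80 FPKM. Over all 10 members, 5 were higher and 2 lower with no overlap between groups, where 31.6% and 29.9% of all tested genes were, so these counts are read against a high background.

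**Figure D3:**
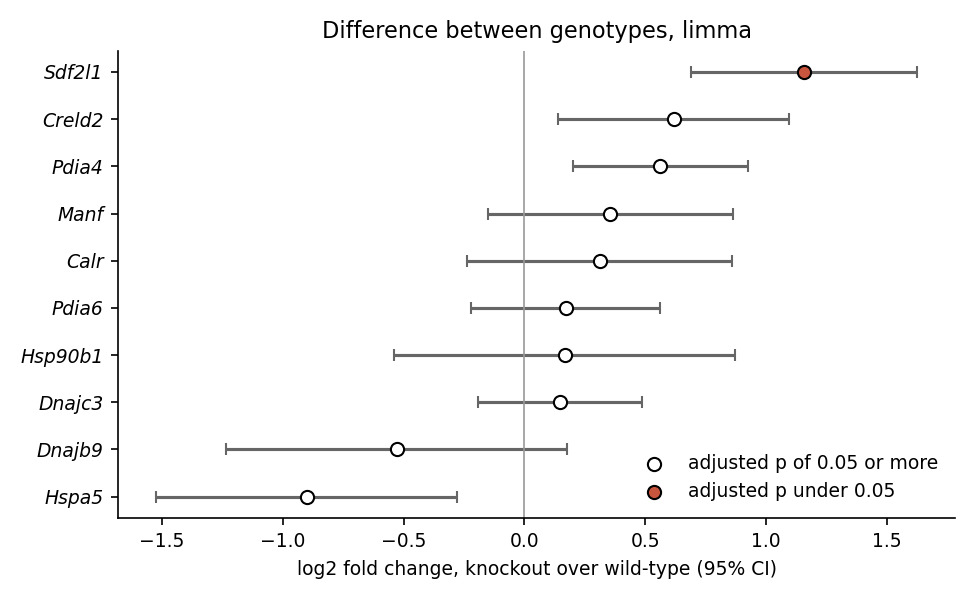
Log2 fold change of knockout over wild-type for each member from limma on log2(FPKM + 0.5), with bars for the 95% confidence interval. Sdf2l1, filled, is the one member with an adjusted p under 0.05; the intervals of Creld2, Pdia4 and Hspa5 also leave out 0 but are not adjusted for the number of genes.

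Within a pool, a ratio of 2 genes does not depend on how the library was scaled. Sdf2l1 was at 3.12% and 2.87% of the Hspa5 level per length in wild-type pools, against 12.7% and 12.4% in the knockout, a 4.19-fold higher mean ratio. Sdf2l1 and Hspa5 had the highest and lowest log2 fold changes of the members, 1.16 and -0.90. Their ratio is thus the most extreme pair, taken from these same values. The ratios of replicate pools were close to each other, although both genes differed more between replicates on their own. An exact two-sided permutation test of 2 against 2 libraries cannot give a p below 0.333, which this ratio and those below reached. Calr went from 24.1% and 24.0% of Hspa5 to 57.6% and 54.1%. Pdia4 went from 8.57% and 7.01% to 22.4% and 20.5%. Dnajb9 had the smallest change of ratio, from 8.05% and 9.74% to 12.0% and 10.9%. All 9 ratios were higher in the knockout with no overlap, but the lower Hspa5 level raises every such ratio by construction. Hsp90b1, whose own FPKM groups overlapped, went from 16.2% and 18.5% of Hspa5 to 35.9% and 36.5%. The share of all tested genes with a higher ratio to Hspa5 was not computed. The count of ratios is therefore not a result about the members. The summed FPKM of the 10 members was 1854 and 2512 in the wild-type and 1655 and 2013 in the knockout pools. Without Hspa5 it was 844 and 1134 in the wild-type and 1092 and 1305 in the knockout pools, so both sums overlapped.

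**Figure D4:**
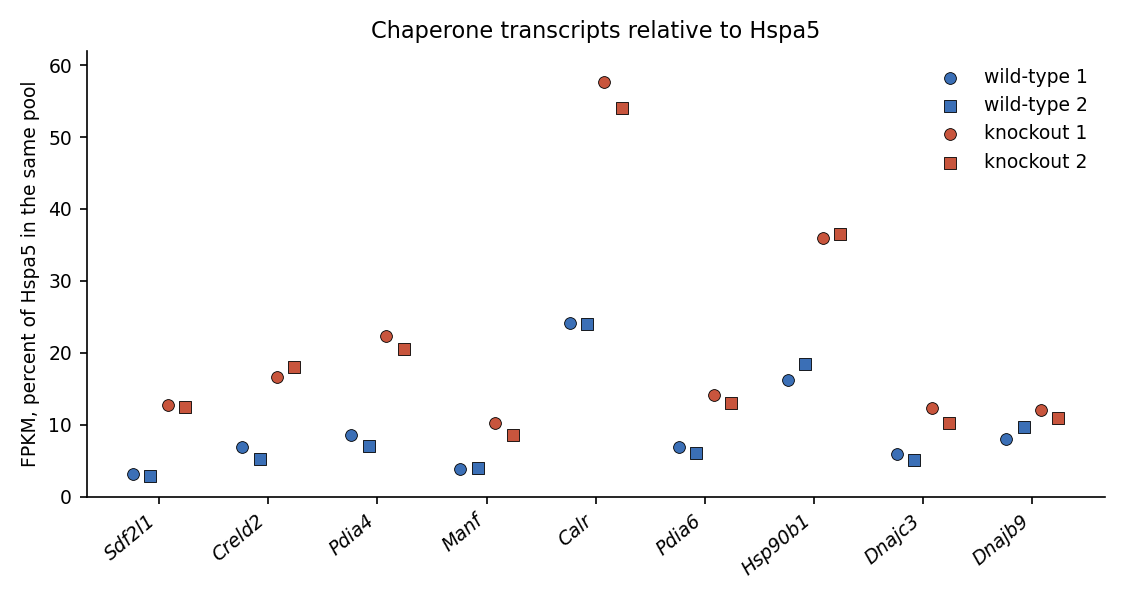
FPKM of 9 members as a percentage of the Hspa5 FPKM in the same pool, ordered by the change of the ratio. Blue points are wild-type and red points knockout pools; for each gene both red points lie above both blue points, with Sdf2l1 near 3% in the wild-type and near 12.5% in the knockout.

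The members also varied together between pools of the same genotype. All 10 were higher in replicate 2 than in replicate 1 in both genotypes, a pattern held by 21.9% of all tested genes, and 9 of the 10 kept it when values were rescaled to the listed reads. Replicate 2 stood at 1.02 to 1.65 times replicate 1 in the wild-type and at 1.04 to 1.36 times in the knockout, where the medians over all tested genes were 1.01 and 1.01. Dnajb9 had the widest wild-type gap and Creld2 the widest knockout gap. Members are not independent of each other, so the count is a description of these 4 pools.

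Summed markers of 3 other cell types were lower in both knockout pools. Neutrophil markers summed to 119 and 182 FPKM in wild-type and 39.1 and 34.9 FPKM in knockout pools, with 4 of 8 tested markers lower, 8 of 8 at an unadjusted p under 0.05. Limma voom called 6 of 8 lower, limma on protein-coding genes alone 7 of 8, and limma without a filter 0 of 10. The limma test called 2 of them without wild-type replicate 1, 0 without any 1 of the other libraries and 2 with the replicate block. Cholangiocyte markers summed to 266 and 104 FPKM in wild-type and 43.0 and 20.9 FPKM in knockout pools, with 1 of 4 tested markers, Sox9, lower; it passed in 1 of 4 fits with a library left out, that without knockout replicate 2. Most of that sum was Spp1, at 247 and 89.6 FPKM in wild-type and 33.7 and 12.9 FPKM in knockout pools. Only 4 of the 8 cholangiocyte markers were tested, 3 with a negative log2 fold change and 1 with a positive one, 0.52. Sinusoidal endothelial markers summed to 84.8 and 81.5 FPKM in wild-type and 61.5 and 64.7 FPKM in knockout pools. Of these 9, 0 were called by limma or voom, and 3 were lower and 0 higher at an unadjusted p under 0.05. Their log2 fold changes were negative in 6 and positive in 3. Kupffer cell and macrophage markers overlapped, at 400 and 310 FPKM in wild-type and 237 and 388 FPKM in knockout pools, with 0 of 10 called, also by voom or at an unadjusted p under 0.05. Stellate cell and fibroblast markers overlapped as well, at 49.96 and 56.9 against 58.1 and 49.7 FPKM. The share of mitochondrial ribosomal RNA reads was 0.244% and 0.251% in the wild-type and 0.108% and 0.158% in the knockout pools. The part of these marker and mitochondrial values in the chaperone levels was not tested. Plasma cells and pancreatic acinar cells are rich in ER. B and plasma cell markers summed to 101 and 76.4 FPKM in wild-type and 97.9 and 94.4 FPKM in knockout pools, overlapping. Of 9 acinar markers found, 6 were at 0 in all 4 pools, and the 9 summed to between 2.02 and 2.71 FPKM per pool.

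The rest of the ER folding pathway was described from lists of genes by role, without a test of any list. Over all 11900 tested genes, limma called 1.6% higher and 3.14% lower, and 27.1% had an unadjusted p under 0.05. Limma voom called 390 higher and 713 lower. The counts below are read beside these, and a count near them is not a result about its list. Of 32 tested other ER folding factors, 1 rose, 0 fell and 31 did not pass (median log2 fold change 0.07). At an unadjusted p under 0.05, 4 were higher and 1 lower in limma, and limma voom called 4 higher and 0 lower. The one that rose was Pdia5, a disulfide isomerase, from 22.6 and 23.9 FPKM in wild-type pools to 39.2 and 37.2 FPKM in knockout pools (adjusted p = 0.0429). Dnajb11, which encodes ERdj3, the partner of the Sdf2l1 protein, was at 29.5 and 36.4 FPKM in wild-type and 51.5 and 52.6 FPKM in knockout pools, but did not pass (adjusted p = 0.0731). Creld1, the paralog of Creld2, was at 9.93 and 10.04 FPKM in wild-type and 14.4 and 17.0 FPKM in knockout pools (adjusted p = 0.0644). Sdf2, the paralog of Sdf2l1, was looked up after the values were seen. With 461 and 472 reads in wild-type and 531 and 505 reads in knockout pools, it had a log2 fold change of 0.05, and the FPKM of the groups overlapped.

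Among the sensors and transcription factors of the unfolded protein response, 2 fell and 0 rose of 10 tested, with a median log2 fold change of -0.35, which became -0.14 without knockout replicate 2. At an unadjusted p under 0.05, 4 were lower and 0 higher in limma, and limma voom called 3 lower and 0 higher. Eif2ak3, which encodes PERK, fell from 8.27 and 10.4 FPKM to 3.603 and 3.44 FPKM (limma adjusted p = 0.0315). Creb3l2, an ER-bound transcription factor, fell from 19.8 and 14.6 FPKM to 6.92 and 6.32 FPKM (adjusted p = 0.0390). Ern1, which encodes IRE1 alpha, was at 19.4 and 28.1 FPKM in wild-type and 12.0 and 11.7 FPKM in knockout pools (adjusted p = 0.0712, not passing). In the ATF4 and CHOP arm, 5 of 10 tested genes fell and 0 rose (median -1.49). At an unadjusted p under 0.05, 8 were lower and 1 higher, and limma voom called 6 lower and 0 higher. Ddit3, which encodes CHOP, was at 305 and 348 FPKM in wild-type and 53.9 and 53.8 FPKM in knockout pools. It fell, as did Atf3 and Ppp1r15a, with log2 fold changes of -2.59, -2.54 and -2.13. Sesn2 and Trib3 were the other genes called. With 1 library left out in turn, Ddit3 passed in 2 of 4 fits, Atf3 in 1 and Ppp1r15a in 2.

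Of 25 tested genes of ER-associated degradation, which removes misfolded proteins, 1 rose and 0 fell (median 0.04). The gene that rose was Derl3, a derlin of the retrotranslocation machinery, from 0.831 and 0.989 FPKM to 4.19 and 4.01 FPKM (limma adjusted p = 0.0258). These levels rest on 28 and 31 reads in wild-type and 149 and 137 reads in knockout pools. Both wild-type pools were under 1 FPKM, so Derl3 passed the filter only through its knockout level. With a filter of 5 FPKM, 24 genes of this list were tested and 0 were called. Sel1l and Ube2g2, an adaptor and a ubiquitin-conjugating enzyme of the same process, had log2 fold changes of 0.69 and -0.58 and did not pass. In this list 4 genes were higher and 3 lower at an unadjusted p under 0.05, and limma voom called 1 of each. Of 16 tested genes of transport to and retrieval from the Golgi, 1 fell and 0 rose (median -0.01, or 0.05 when rescaled to listed reads). The gene was Kdelr2, a receptor that returns proteins with a KDEL-type tail, such as BiP, to the ER. It fell from 144 and 119 FPKM to 60.0 and 67.5 FPKM (adjusted p = 0.0426). Lman1, a cargo receptor, and Sec24b, a coat subunit, had log2 fold changes of 0.56 and -0.42 and did not pass. Unadjusted p-values under 0.05 belonged to 2 higher and 2 lower genes of this list, and limma voom called 0 higher and 1 lower. Like Sdf2l1, the genes Pdia5, Eif2ak3, Creb3l2, Trib3, Derl3 and Kdelr2 each missed the threshold whichever 1 library was left out.

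None of 24 tested genes of entry into the ER and none of 11 tested oligosaccharyltransferase genes passed the limma test. At an unadjusted p under 0.05, 0 and 1 were higher and 1 and 0 lower in these lists, and limma voom called 0 in both. Their medians were 0.05, which became -0.03 without wild-type replicate 1, and 0.14. The smallest p-values belonged to Sec61a2, Sec11c and Spcs2, with log2 fold changes of -0.53, 0.27 and 0.27, and to Magt1, Ostc and Rpn1, with 0.38, 0.30 and 0.30.

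**Figure D5:**
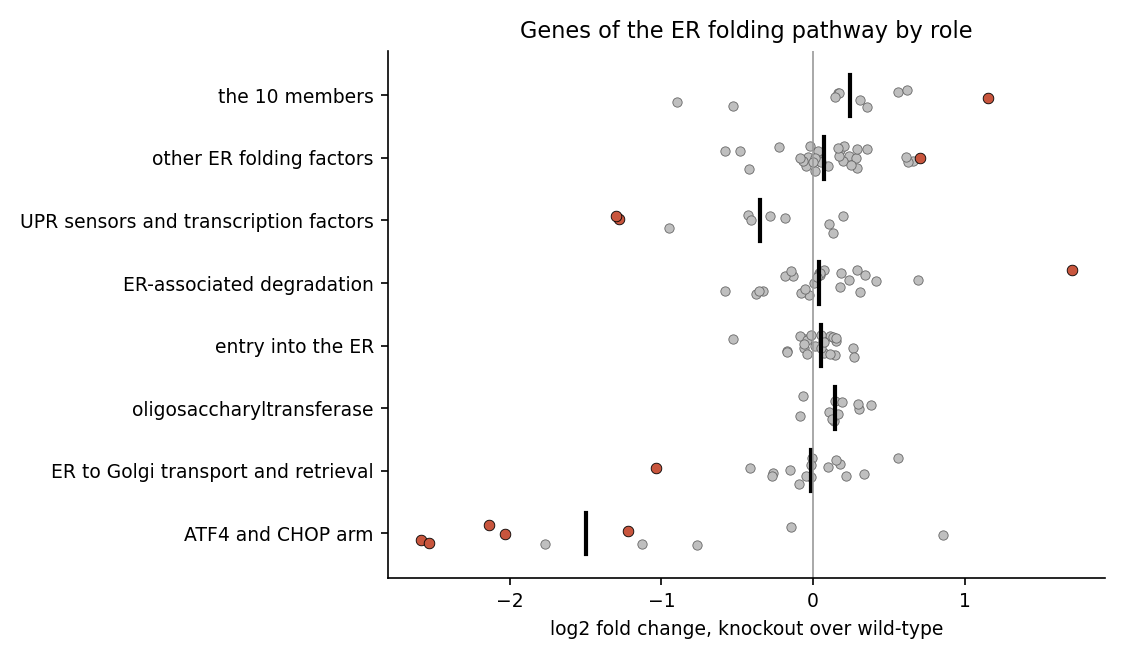
Log2 fold change of knockout over wild-type for every tested gene of the members and 7 pathway lists. Each point is a gene, red where its limma adjusted p was under 0.05, and the black bar is the median; the members' red point is Sdf2l1, and the ATF4 and CHOP arm has its median at -1.49.

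The tested protein-coding genes with the pattern nearest to Sdf2l1 over the 4 libraries were Nat8, Nr0b2, Acnat1, Cib2 and Fmo1. Likeness was the root mean square difference of log2(FPKM + 0.5) after each gene was centred on its mean, and it ran from 0.053 for Nat8 to 0.091 for Fmo1. Among the members, Creld2 (0.29) and Pdia4 (0.30) were nearest to Sdf2l1 and Hspa5 (1.03) was farthest. Over all tested genes Creld2 was only the 327th nearest and Pdia4 the 374th. Nr0b2, a repressor of bile acid synthesis genes, was at 3.50 and 4.05 FPKM in wild-type and 7.73 and 9.64 FPKM in knockout pools. Fmo1, a flavin monooxygenase, was at 34.6 and 36.5 FPKM in wild-type and 70.6 and 91.4 FPKM in knockout pools. Nat8 and Cib2 were at 2.96 FPKM or less in each pool. At such levels the added 0.5 FPKM narrows the differences, so their likeness to Sdf2l1 depends in part on it. These genes were chosen for their likeness to a gene that rose, so their differences between genotypes are a description.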

How the data were processed

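Liver poly(A) RNA was sequenced in 4 libraries. The authors deposited 1 table of FPKM per gene and library, with gene lengths and coordinates per the file headers. Per the submitters' processing notes, HISAT2 2.0.5 aligned the reads to mm10, GRCm38.p6. How reads were counted, and whether by strand, is not stated in the sources used here. Products of FPKM and gene length were whole multiples of 1 step in 100% of values above 0, within 0.01 read, which gave the reads quoted; 0 sample columns were left out.

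Tests used limma 3.58.1 (R 4.3.3) on log2(FPKM + 0.5), two-sided with a mean-variance trend and Benjamini-Hochberg adjustment over the 11900 genes averaging 1 FPKM or more, threshold 0.05, and 2 residual degrees of freedom. Fold changes on this scale understate low genes. The fit was tested on simulated data. The members and lists were chosen with earlier results of these data known. Named genes were the members, Kdm6a, the 3 smallest p of each pathway list and the 5 genes most like Sdf2l1. Sdf2, Sox9, Spp1, Sesn2, Trib3, the genes overlapping members and the genes named for an ERSE were named outside this rule, after their values were seen. Of the list genes, Srp54a, Srp54c and Amy2a5 were not found by symbol. The log2 fold change is that of knockout over wild-type. Promoter windows came from RefSeq. Alternatives varied the pseudocount, filter, scaling, limma settings, replicate blocks and gene biotypes, used voom on recovered reads, or left out each library. Figures used matplotlib 3.10.9 under Python 3.11.15.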

Additional observations from a re-analysis of the deposited data

How the results depend on the processing

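Each group has 2 pools, which limits what can be called. Of the 10 members, 9 kept their direction in all 17 alternatives. The exception, Hsp90b1, was at -0.15 without wild-type replicate 1 and at -0.01 without knockout replicate 2. No member other than Sdf2l1 passed in any alternative. Sdf2l1 was called in 10 of 17 and lost in 7, at the same log2 fold change of 1.16 without a trend, without a filter on low values and with the crossed replicate block, where 0 members were called. With 1 library left out, the lone sample of its group is assumed to vary like the other group, and the fits gave -0.15 to 0.48 for Hsp90b1, 0.99 to 1.32 for Sdf2l1 and 0 members called higher. The same fits gave 0.09 to 0.53 for Calr, 0.11 to 0.60 for Manf, -0.89 to -0.17 for Dnajb9, 0.05 to 0.29 for Pdia6, 0.04 to 0.26 for Dnajc3, 0.40 to 0.84 for Creld2, 0.46 to 0.66 for Pdia4 and -1.12 to -0.68 for Hspa5, with the extremes of Calr, Manf, Dnajb9, Pdia6, Dnajc3 and Hspa5 in the fits without a wild-type library. The number of genes called over the table was 564 (190 higher, 374 lower). It was 1103 (390, 713) with limma voom on recovered reads, 1014 (408, 606) for protein-coding genes alone, 867 (322 higher) with at least 50 reads and 280 (80, 200) without a trend. It was 0 (0, 0) without a filter, where limma gave 4388 genes at an unadjusted p under 0.05. Leaving out 1 library gave 0 to 234 (0 to 51 higher, 0 to 183 lower), with 0 without wild-type replicate 2 (2662 at an unadjusted p under 0.05), 5 without knockout replicate 1, 30 without wild-type replicate 1 and 234 without knockout replicate 2. The replicate block called 310 genes (74, 236) and kept Sdf2l1 (adjusted p = 0.0447). Deviations of same-numbered libraries correlated at -0.14, so the numbers are not shown to pair the pools. The crossed pairing, chosen after seeing the data, called 552 genes (213 higher, 339 lower). Rescaling to listed reads called 466 genes and moved the median of all genes to 0.07.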

Other observations

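The exact ERSE lay in the promoter windows of 37 genes, members included, of which 34 were found in the table and 17 tested, 6 of them members. Derl3, Acacb, Syvn1, Canx and Ero1lb were among the 11 others. Of these 11, 10 had a positive log2 fold change, with a median of 0.32 beside 0.01 over all tested genes. With the 6 members, 15 of 17 were positive, with a median of 0.24. The share of all tested genes with a positive value was not counted. Gm6566 and Xlr3a, among the 11, were at 1.68 FPKM or less in each pool. Derl3, Gm6566 and Xlr3a averaged 0.910, 0.858 and 0.888 FPKM in the wild-type, under the filter of 1 FPKM. They were tested only through their knockout level, which fixed their direction. The median of 0.32 is the value of Xlr3a. Neither the count of positive values nor this median is therefore a result about the element. Called higher were 2 of 17, Derl3 and Acacb, and called lower were 0, where 1.6% and 3.14% of all tested genes were. At an unadjusted p under 0.05 in limma, 4 were higher and 2 lower, where 27.1% of all tested genes passed. With no overlap between groups, 9 were higher and 2 lower, where 31.6% and 29.9% of all tested genes were. The 2 with a negative value were Hspa5 and Hnrnpa3. Acacb, an acetyl-CoA carboxylase, rose from 6.28 and 4.98 FPKM to 15.4 and 15.03 FPKM (adjusted p = 0.0302). Syvn1, the ubiquitin ligase of ER-associated degradation, was at 24.4 and 34.1 FPKM in wild-type and 36.3 and 32.1 FPKM in knockout pools, overlapping. These genes were chosen after the members' promoters had been searched, and the motif was not tested against the fold changes.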
